A study of Drosophila melanogaster with 3 samples.

Results

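Binding of GFP-tagged CG32006 was examined at the Hedgehog signalling genes hh, ptc, smo, ci, en, inv and Su(fu). These are 7 of the 13945 protein-coding genes on 6 chromosome arms, and they were taken by name, with earlier results of these data known. Chromatin immunoprecipitation with sequencing was done on 3 biological replicates of 1 group, whole prepupae of pooled sex from a transgenic line with GFP at the C-terminus of CG32006, using an antibody to GFP. No second condition is described, and the labelled age of 48 days cannot be that of prepupae. The RefSeq gene table lists FoxJ1, a forkhead family name, as a synonym of CG32006. The optimal list of the study, called on all 3 replicates, held 11665 peaks with an authors' signal between 197 and 10303 and a median of 443. A peak was assigned to every gene whose body, or the 5 kb on either side of it, held the peak's summit, and this stretch is called the window of that gene. An optimal summit was called supported by a replicate when it lay in one of the 11665 strongest of the 30000 regions listed for that replicate. All replicate lists were called against the same control, per the deposited notes. Since whole animals were used, binding in fewer cells and weaker binding per cell cannot be told apart.

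Hedgehog is a secreted protein that passes from the cells that make it to their neighbours. Its receptor Patched, encoded by ptc, holds the membrane protein Smoothened inactive until Hedgehog binds, after which Smoothened signals to the zinc finger transcription factor Cubitus interruptus, encoded by ci. Su(fu) encodes a cytoplasmic protein that restrains Cubitus interruptus, and ptc is itself a target gene of the pathway. In wing and leg discs, which are reshaped in the prepupa, the homeodomain factors Engrailed and Invected mark the posterior cells, where hh is expressed and ci is repressed.

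Of the 7 genes 6 had at least 1 optimal summit in their window, with 25 summits in all, and ptc held 15 of them. The other counts were 4 at inv, 2 at hh, 2 at smo, 1 at ci, 1 at en and 0 at Su(fu). Having a summit under this rule was common, since 54.1% of all protein-coding genes did (7551 of 13945, Wilson 95% interval 53.3 to 55.0%, which covers counting error only). Windows of neighbouring genes overlap, so these genes are not independent of each other. With the genes put into 5 classes of equal size by window length, the share was 41.7% in class 1, the shortest, and 76.6% in class 5, the longest, and hh, ptc, ci and inv belong to class 5. A summit within 500 bp of an own transcription start site (TSS) was found at 1 of the 7 genes, ptc, against 19.1% of all protein-coding genes. Each of the 25 summits was put in 1 class only, with 15 in introns, 6 between genes, 3 within 500 bp of a TSS and 1 in a non-coding gene. Nearness to a TSS was decided first, and of the summits beyond 500 bp 0 lay in coding exons or untranslated regions. Those within 500 bp were not checked for exons, and non-coding genes were looked up last, after introns. The ptc summit 1181 bp downstream of the TSS, classed as intronic, also lay in lncRNA:CR44281. Likewise the smo summit with a signal of 484, classed as near a TSS, lay in asRNA:CR46263. The shares of these classes in the whole optimal list are not given here, so this placement cannot be called particular to the 7 genes.

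**Figure D1:**
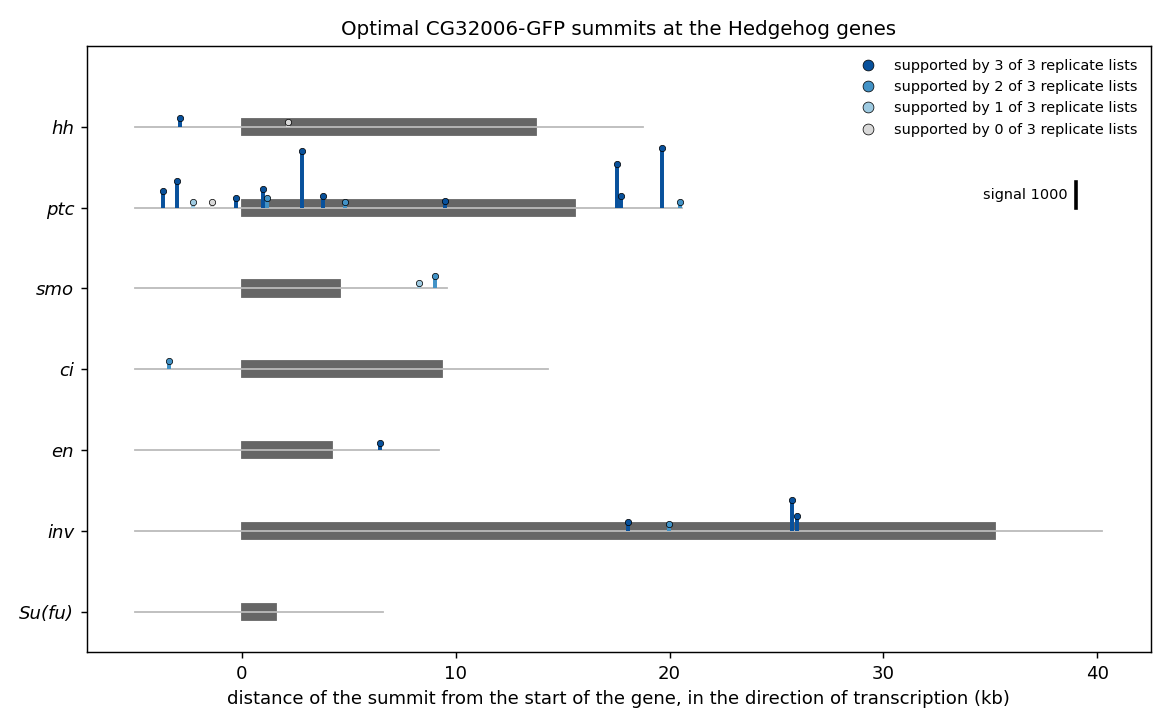
Optimal summits at the 7 genes, drawn to scale along each gene. The x axis gives the distance from the start of the gene in kb in the direction of transcription, grey boxes are gene bodies, thin lines the windows, and the height of each stem is the authors' signal. The 15 summits of ptc run from 3717 bp before the gene to 4917 bp past its end, while Su(fu) has 0.

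The sequences under the summits of hh, smo and ci are given here, as a part of the 25 windows that the motif counts further on refer to. Each is the stretch of 101 bp centred on a summit, from the plus strand of the RefSeq Release 6 genome (dm6), 5′ to 3′, with matches to the 9 searched motifs in capitals. The first sequence holds a pair of overlapping forkhead core matches, on opposite strands. The second holds a Pho match, GCCAT, followed by the reverse complement of the TCF motif CTTTGAA, and the fourth holds that TCF match again. The others have no match.
hh summit 1, chr3R:23139704-23139804: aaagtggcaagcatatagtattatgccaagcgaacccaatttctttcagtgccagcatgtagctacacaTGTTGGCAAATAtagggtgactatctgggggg
hh summit 2, chr3R:23144775-23144875: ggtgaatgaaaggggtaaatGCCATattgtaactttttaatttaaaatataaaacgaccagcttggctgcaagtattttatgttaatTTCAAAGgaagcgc
smo summit 1, chr2L:285810-285910: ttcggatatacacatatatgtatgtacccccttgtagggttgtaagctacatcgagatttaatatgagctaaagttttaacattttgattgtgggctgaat
smo summit 2, chr2L:286579-286679: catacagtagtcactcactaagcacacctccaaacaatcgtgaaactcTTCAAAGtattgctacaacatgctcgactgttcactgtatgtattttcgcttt
ci summit 1, chr4:60394-60494: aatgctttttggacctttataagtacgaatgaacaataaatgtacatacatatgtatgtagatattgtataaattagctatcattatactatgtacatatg

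At hh, which encodes the ligand, both summits were weak. The gene (FBgn0004644) lies on chromosome 3R (dm6, 23128169 to 23141906, minus strand). Its first summit, in an intron 2152 bp downstream of the TSS, had a signal of 199.8, close to the lowest of the optimal list, and no replicate supported it. The regions that held it ranked 15779, 11911 and 12714 in replicates 1 to 3, all past the limit of 11665 and in replicate 2 only just. The second summit, 2919 bp upstream of the TSS and between genes, had a signal of 348 and was supported by all 3 replicates, with ranks of 8511, 7881 and 8006 in replicates 1 to 3. In the replicates' own lists its signals were 90.7, 111 and 123, against lowest signals of 62.9, 70.7 and 78.1 among the 11665 strongest. The intronic summit, at 42.6, 68.8 and 70.2, was under that lowest signal in every replicate. The pooled list had 7 regions in the hh window, and the lists of replicates 1 to 3 had 8, 3 and 8. The hh window is 23.7 kb long, and 59.3% of the genes in class 5 had at least 2 summits.

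The receptor gene ptc stood out among the members by number and by strength. The gene (FBgn0003892) lies on chromosome 2R (8649649 to 8665223, plus strand), and its window of 25.6 kb held 15 optimal summits, or 0.587 per kb, against 0.0871 per kb over the 6 arms. Only 85 of 13945 genes had more summits, and ptc ranked 30 by summits per kb. In class 5 3.62% of the genes had at least 15. Of the 11665 strongest regions of replicates 1 to 3, the ptc window held the summits of 13, 15 and 13 (13.7 ± 1.15, SD, n = 3). Some neighbouring summits fell in overlapping peaks, and merging these left 13 separate regions at ptc. The median spacing of the summits was 1015.5 bp, and the longest gap, of 8048 bp, ran over the 3′ part of the gene.

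The summits of ptc fell into 3 stretches. Upstream of the gene there were 5. The strongest of these lay 3032 bp before the TSS (signal 1034.6, ranks 2014, 2579 and 1991 in replicates 1 to 3), and another lay 3717 bp before it (signal 649). The summit nearest to the TSS, 275 bp upstream and the only promoter-proximal one among all 7 genes that belonged to its own gene, had a signal of 378, below the median of the list, and was supported by all 3 replicates. In the gene body there were 6, all in introns. The strongest of these lay 2804 bp downstream of the TSS at a signal of 2194 and ranked 683, 587 and 610 in replicates 1 to 3, where its signals were 602, 791 and 797. The others in the body ranged from 224 to 716. Past the 3′ end there were 4, in introns of Acsl, a fatty acyl-CoA synthetase gene that starts 590 bp downstream of ptc, and for each the nearest TSS was one of Acsl, as it also was for the last summit of the gene body. They include the strongest of all member summits, 4090 bp past ptc at a signal of 2319.6 (peak at 8669026 to 8669601, ranks 489, 667 and 488) and one 1962 bp past ptc at 1699.8 (ranks 1109, 882 and 1062). Counting each summit only for the gene with the nearest TSS left 10 summits at ptc.

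Support at ptc broadly followed signal. All 3 replicates supported 10 of the 15 summits, 2 replicates supported 3, 1 replicate supported 1 and 0 replicates supported 1. The 7 summits above 443 were all among the 10. Below 443 the order was not strict. A summit at 271 had the support of all 3 replicates and one at 362 of 2, while one at 227.5 had 1 and one at 223.8 had 2. The summit 1407 bp upstream of the TSS, at a signal of 200.5, was the one with no support and ranked 12614, 12352 and 11950. For summits 12 and 13, which lie 201 bp apart, a single region of replicate 3 covered both, so that its rank of 1062 stands for each.

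**Figure D2:**
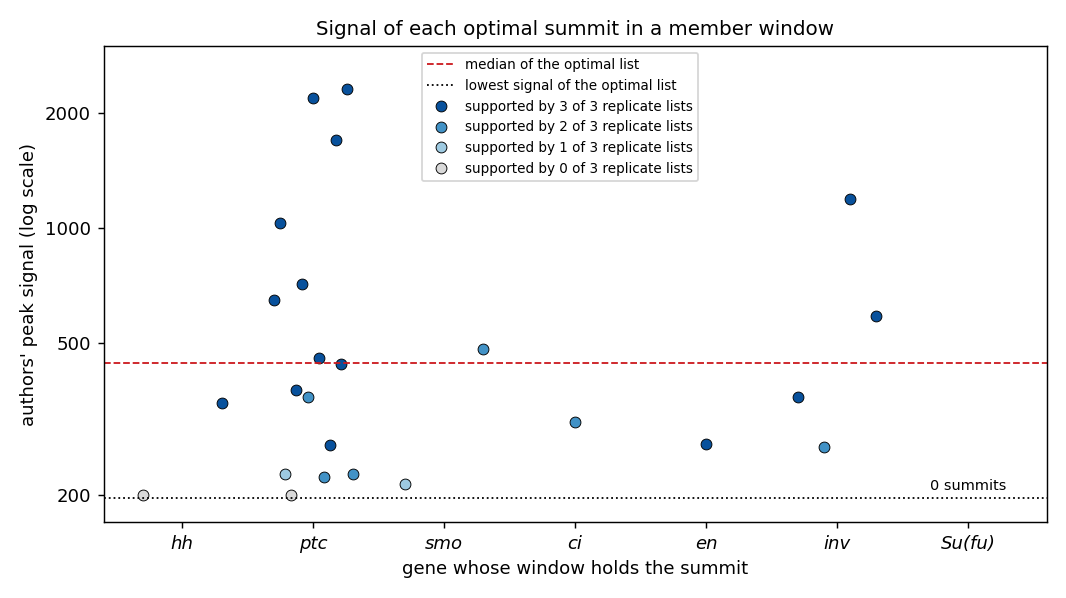
Authors' signal (log scale) of each optimal summit, grouped by the gene whose window holds it and coloured by the number of replicates that supported it. The 3 strongest summits, from 1699.8 to 2319.6, are all at ptc, and both summits with no support lie near the lowest signal of the list.

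At smo, the gene of the signal transducer, both summits lay past the 3′ end and at the promoter of another gene. The gene (FBgn0003444) lies on chromosome 2L (277582 to 282167, plus strand), and the summits were 3693 and 4462 bp past its 3′ end. Each lay within 500 bp of a TSS of CG3625, at 134 and 98 bp. The summit at 98 bp had a signal of 484 and ranks of 5006 in replicate 1 and 6647 in replicate 3, and no region listed for replicate 2 held it. The summit at 134 bp had a signal of 214, ranked 13192, 12530 and 10037 in replicates 1 to 3 and was supported by replicate 3 only. No summit lay in the body of smo, and none upstream of it within 5 kb. The window overlaps 5 other protein-coding genes, of which CG17078 and CG11601 overlap smo itself.

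The ci window held 1 summit, on a chromosome with very few. The gene (FBgn0004859) lies on chromosome 4 (47710 to 57041, minus strand), and the summit stood 3403 bp upstream of its first TSS, inside the antisense gene asRNA:CR43957. Its signal was 310, it ranked 7589 in replicate 1 and 7803 in replicate 3, and no region of replicate 2 held it. On the whole of chromosome 4 the optimal list had 4 summits, the pooled list 6 regions, and the lists of replicates 1 to 3 had 23, 4 and 47 regions. Of the 80 protein-coding genes there, 8 had a summit in their window (10.0%), so ci was among few. The next optimal summit lay 750548 bp from the gene. In replicate 2 the ci window held 0 regions, against 4 in replicate 1 and 9 in replicate 3. Replicate 2 also had the fewest regions with a −log10 q of at least 2, at 9587 against 14910 in replicate 1 and 17614 in replicate 3. The part of this in the missing smo and ci regions was not tested.

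At the paralogs en and inv the summits lay away from both starts. The genes are convergent on chromosome 2R, inv (FBgn0001269) at 11474465 to 11509695 on the plus strand and en (FBgn0000577) at 11524006 to 11528210 on the minus strand. The single summit of en lay 2251 bp past its 3′ end, between the genes, with a signal of 273, and all 3 replicates supported it (ranks 8463, 9683 and 10866). All 4 summits of inv were in introns, between 16826 and 24696 bp from its nearest TSS. The strongest of these had a signal of 1189 (peak at 11500003 to 11500379) and ranks of 1824, 2159 and 1462. The fourth, 200 bp further on at a signal of 588, belonged to an overlapping peak, and a single region of replicate 3 covered both, while the first and second had signals of 362 and 268. All 3 replicates supported 3 of the 4, and the second was supported by replicates 1 and 2. Per kb of window, inv had 0.0884 summits, much as the 6 arms had with 0.0871.

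The inv window had the most regions below the threshold of the 7 genes. The pooled list of 30000 regions, which contains the optimal list, had 29 regions there, and 25 of them did not reach the optimal list. The share that did was 13.8% at inv, against 38.9% in the pooled list as a whole. It was also under that value at en (25%, 1 of 4 regions), hh (28.6%, 2 of 7) and ci (33.3%, 1 of 3). At ptc it was 78.9% (15 of 19 regions), and at smo both of 2 regions were in the optimal list. Pooled regions per kb came to 0.641 at inv and 0.743 at ptc, against 0.224 over the 6 arms. The median signal of the pooled regions was 87.4 at inv, 90.04 at hh and 362 at ptc. The replicate lists held 29, 21 and 24 regions in the inv window for replicates 1 to 3. Among each replicate's strongest 11665, these numbers came to 4, 6 and 3.

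Su(fu), the gene of the inhibitor, had no region in any list used. The gene (FBgn0005355) lies on chromosome 3R (12689873 to 12691468, minus strand), in a window of 11.6 kb that also touches kar, Arp1, CG31347, CG14391 and NijC. The optimal list, the pooled list and all 3 replicate lists had 0 regions with their summit in it. In its class of window length, class 2, 48.0% of the genes had an optimal summit. The nearest optimal summit lay 23978 bp from the gene, at a signal of 215.

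**Figure D3:**
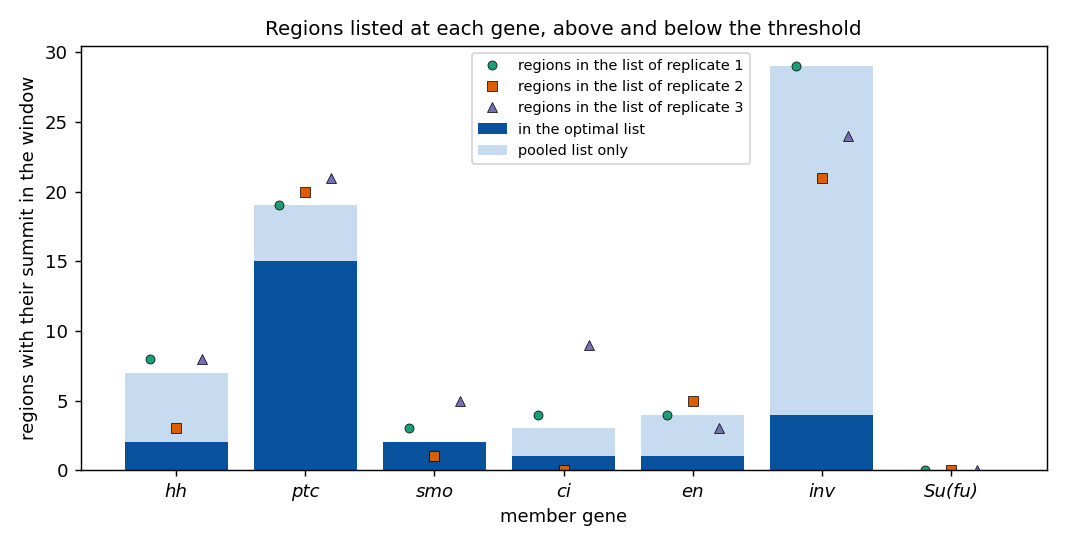
Regions with their summit in each window. Bars are regions of the pooled list, dark where they are in the optimal list and light where they are not, and symbols are the regions listed for each replicate. At inv 25 of 29 regions are light, at ptc 4 of 19, and Su(fu) has 0 in every list.

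The edge of the window decided several of these counts. The outermost summit inside the 5 kb was at 4917 bp for ptc (signal 227), 4462 bp for smo (484), 3403 bp for ci (310), 2919 bp for hh (348) and 2251 bp for en (273). Just outside were a summit 5062 bp from ptc (signal 253), one 5884 bp from hh (424), one 6227 bp from inv (616), one 6496 bp from en (531) and one 9936 bp from smo (2360.3), the last within 500 bp of a TSS of CG17075. At hh, en and smo the first summit outside was stronger than any inside, and for ci and Su(fu) it was over 20 kb away.

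Over the 7 genes, all 3 replicates supported 15 of the 25 summits, 2 supported 6, 1 supported 2 and 0 supported 2. In the whole optimal list the share supported by all 3 was 73.6%, and the members' 60.0% lay below it. The members also had weaker summits, with a median signal of 362 against 443 in the whole list, and 10 of 25 lay above that median. Support went with signal in the whole list too. With that list cut into 10 classes by signal, the share fell from 98.1% in the strongest class to 90.8% in the fourth. It was 28.0% in the second weakest class and 10.97% in the weakest. Of the 6 member summits in the 2 weakest classes, 0 were supported by all 3 replicates, while in the 4 strongest classes 8 of 8 were. Because the optimal list was called on the same reads, this support is a description and not a separate test.

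**Figure D4:**
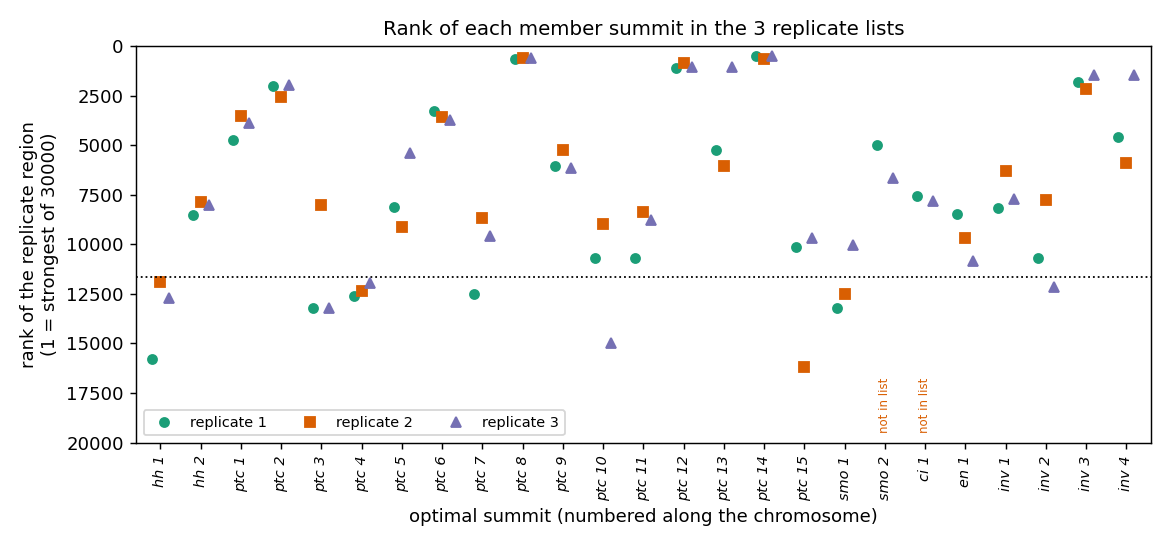
Rank of the replicate region that held each optimal summit, with the strongest at the top of the axis and the dotted line at 11665. Summits are numbered along the chromosome within each window. Summits 8, 12 and 14 of ptc rank between 488 and 1109 in every replicate, and summit 2 of smo and the summit of ci are in no region of replicate 2.

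Of 30 further genes of the pathway, 21 had an optimal summit in their window (70.0%), beside the 54.1% of all protein-coding genes. Most of them are long, and in class 5 it was 16 of 21, where 76.6% of all genes had one. They held 124 summits, of which all 3 replicates supported 95, beside a share of 73.6% in the whole optimal list. A summit within 500 bp of an own TSS was found at 8 of the 30, beside the 19.1% given above. That share is over genes of all window lengths and is not matched to these longer genes. The list had been chosen with results of these data known.

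Among the genes for release, spread and reception of the ligand, 6 of 10 had a summit (60%, beside 54.1% of all protein-coding genes). The glypican genes dally and dlp, whose products bind Hedgehog on the cell surface, had 15 and 14, with a strongest signal of 1224 at dally and 1918 at dlp. The heparan sulfate polymerase gene ttv had 10, the co-receptor gene boi 7, the secreted factor gene shf 4 and botv 1. However, the botv summit lay 77 bp from a TSS of another gene. For the strongest summits of ttv and dally, too, the nearest TSS was that of another gene. Of the co-receptor pair, boi thus had summits and ihog had 0, but the boi window is 35.9 kb long and that of ihog 13.3 kb. The genes disp and rasp, which act in the release and the lipid modification of the ligand, and sotv also had 0.

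In signal transduction 11 of 15 genes had a summit (73.3%, beside 54.1% of all protein-coding genes and 76.6% of those in class 5). Gprk2, which encodes a kinase of Smoothened, had the strongest of all in its window, at 8500.0 and rank 10 of the optimal list, but that summit lay 81 bp from the TSS of PNPase. The casein kinase gene gish followed with 4626 (153 bp from an own TSS), then the glycogen synthase kinase gene sgg with 3753 (200 bp from an own TSS). Each of these 3 summits was supported by all 3 replicates. The gene rdx, whose product directs degradation of Cubitus interruptus, had 22 summits, the most of the 30, with a strongest signal of 2476 at 336 bp from an own TSS. The strongest summits at SkpA (2457) and nej (2163) lay 201 bp from a TSS of Hmt4-20 and 655 bp from one of nej. No summit was found in the windows of cos, slmb, Smurf and krz. The kinesin-like scaffold encoded by cos and the kinase encoded by fu work in one complex, and fu had 1 summit. That summit lay between genes, and the nearest TSS, at 1424 bp, was that of another gene.

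Among the target genes 4 of 5 had a summit. All 5 belong to class 5, where 76.6% of all protein-coding genes had one. The morphogen gene dpp had 8, the strongest in an intron at 3809, 5273 bp from the nearest TSS, and its regions lay within the top 0.59%, 0.387% and 0.57% of the lists of replicates 1 to 3. The Wnt gene wg had 2, with a strongest of 1570.3 in an intron at 6505 bp from the nearest TSS. Those at kn and ara were weaker, and caup had 0.

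**Figure D5:**
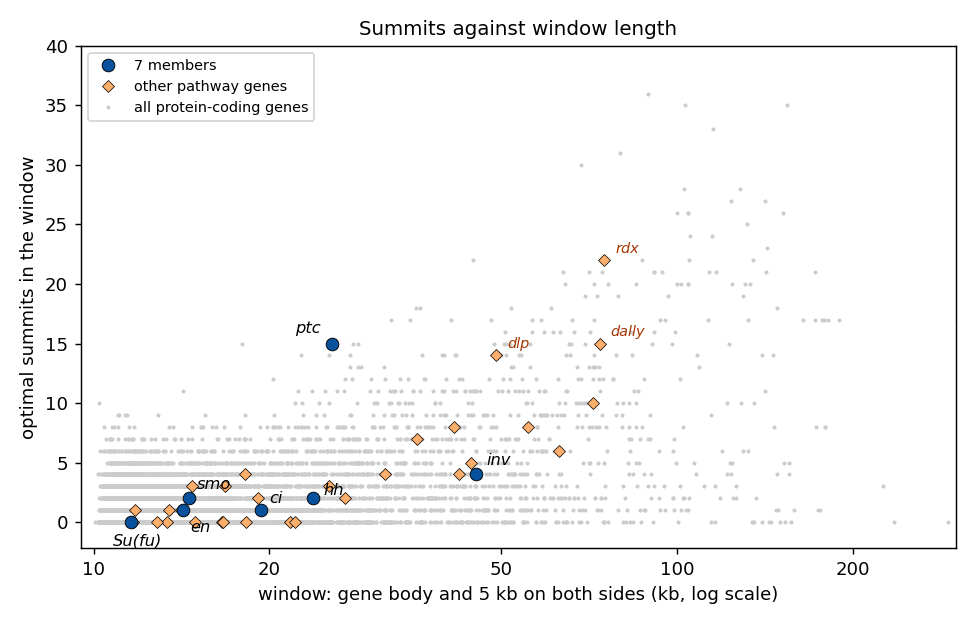
Optimal summits against window length in kb (log scale) for the 7 genes (blue), the 30 further pathway genes (orange) and all protein-coding genes (grey). The ptc window, 25.6 kb long with 15 summits, lies high for its length, and 7 genes beyond 300 kb or 40 summits are outside the axes.

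The member summits were searched for 9 motifs on both strands within 50 bp of the summit, and the shares are given beside those of all 11665 windows. The forkhead core TRTTKRY (R is A or G, K is G or T, Y is C or T), a motif of the forkhead family, was present in 9 of 25 windows (36.0%, against 40.3% of all). They belong to ptc, inv and hh. The stricter TGTTTAC, which overlaps the core, was found in 1 window, at ptc (4% against 2.23%). The Ci/Gli site GACCACCCA and its short core CCACCC were found in 0 of 25 windows, against 0.0171% and 1.71% of all, and the EcR motif AGGTCA in 0 against 2.01%. The TCF motif CTTTGAA was in 4 windows, 1 each at hh, ptc, smo and inv (16% against 3.14%), Pho GCCAT in 4 (16% against 12.5%), GAGAG in 2 (8% against 9.56%) and TAATTA in 1 (4% against 10.6%). A match is a description of the letters and not a bound site. The median GC content of the member windows was 33.7%, against 31.7% in all windows, and ranged from 24.8% at ci and a ptc summit to 54.5% at another ptc summit.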

How the data were processed

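Peak lists in dm6 from 3 replicates were used, and the dm3 lists were not used here. The authors deposited for each peak a signal, on a scale the files do not state, a −log10 q value and a summit offset. Per the deposited notes, each replicate list and the pooled list were called on alignments against 1 control alignment. For the aligner, peak caller, depth and IDR (irreproducible discovery rate) threshold nothing is stated in those notes or the labels. Replicates were compared by rank within each list, since signals of different lists need not share a scale. Offsets past the peak end (9 in the optimal list) were set to its last base. Genes and TSSs came from Ensembl release 115 in dm6 coordinates, sequence from RefSeq Release 6. Python 3.11.15, pandas 2.3.3 and scipy 1.17.1 were used, and the counting steps were tested on simulated data. With 1 condition there was no contrast to test, so every result is a count, a rank or a share. The text names all 7 members, the 10 further pathway genes with the strongest summit, those with none, and genes in or next to member windows. The genes dally, boi, shf, botv, fu, kn, ara, PNPase, Hmt4-20, CG17075 and CG8635 lie outside this rule and were named after their values were seen. The members and gene lists were chosen with earlier results of these data known. Coordinates count from 1.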

Additional observations from a re-analysis of the deposited data

How the results depend on the processing

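The lists carry no replicate error and depth is unknown, so these values describe the lists only. With the gene body alone 3 of the 7 genes had a summit, 11 summits in all, and with 2 kb 3 genes and 14 summits, while 10 kb gave 38 summits. In these 38, 1 summit between inv and en was counted for both genes. The strongest 50% of the optimal list left 3 genes and 10 summits. The share of all protein-coding genes was 17.1% with the gene body, 38.5% with 2 kb, 71.4% with 10 kb, 41.3% with the strongest 50%, 56.7% with pooled regions at a −log10 q of at least 2, 55.0% with any base of the peak and 27.4% with the nearest TSS only. Requiring support by both other replicates when 1 was left out gave 4 to 6 genes, 16 to 18 summits and shares of 46.3 to 49.1%. Without replicate 1 or without replicate 3, ci and smo had 0 summits, whereas without replicate 2 each kept 1. Of the 25 summits, 15 were supported by all 3 replicates (73.6% of the whole optimal list). With all 30000 listed regions it was 23 (91.0% of the list), with the strongest 50% of the 11665 regions 7 (39.1%), and with 1 replicate left out 16 to 18 (78.1 to 81.5%), so the members' counts moved in the same direction as the whole list. Without ptc, a choice made after the data were seen, 10 summits remained and 5 of them had support from all 3. Merging overlapping peaks, also chosen after the data were seen, left 22. The strongest summit of ci has no rank in replicate 2. The number of member windows holding a motif, summed over the 9 motifs so that a window can count under several, was 21 within 50 bp of the summit and 37 within 100 bp. Longer windows hold more motifs in the whole list too, and the forkhead core was in 16 of 25 member windows within 100 bp (64%, against 63.4% of all). At that length CTTTGAA was in 4 (16%, against 5.50%), TGTTTAC in 3 (12%, against 4.54%) and GCCAT in 7 (28%, against 24.9%). Under the share of all were TAATTA in 3 (12%, against 18.4%) and GAGAG in 4 (16%, against 21.0%). The Ci/Gli site, its short core and AGGTCA stayed at 0. With the nearest TSS only, 5 genes had 18 summits, and smo had 0.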

Other observations

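Beyond 5 kb the neighbourhoods of hh, en and ptc held further optimal summits between genes. Upstream of hh 3 summits lay 5884, 6627 and 7281 bp from the gene, with signals of 424, 358 and 457, and each was supported by all 3 replicates and had hh as the nearest TSS. Upstream of en there were 6 between 6496 and 16842 bp, with signals from 203 to 531, of which 4 had support from all 3 replicates. The stretch between inv and en held 1 more, 6227 bp from inv and 8084 bp from en, at a signal of 616, which is higher than that of the en summit itself. Upstream of ptc there were 6 between 5062 and 14940 bp, with signals from 253 to 2254, and 5 had support from all 3 replicates. For the 4 farthest of these the nearest TSS was that of CG8635. Within 20 kb of ci and of Su(fu) there was no summit outside the windows.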
